A study of Mus musculus with 8 samples.

Results

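Kruppel-like factors were followed in CD8+ T cells of mice that lack ASC, the adaptor protein encoded by Pycard, and in CD8+ T cells of wild type mice. The 10 factors are Klf2, Klf3, Klf4, Klf5, Klf6, Klf7, Klf9, Klf10, Klf12 and Klf13, and every probe annotated to one of them was taken, whatever its signal. They have 16 probes among 25697 on the array and are 10 of 16593 named genes. The family was selected on measured values, since the signal difference of Klf4 between the genotypes was already known. The differences of its members are therefore given as a description, with standard errors and intervals and without p-values.

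The knockout group held 4 samples of CD8+ T cells from ASC KO mice and the wild type group 4 samples from WT mice, all on the C57BL/6 strain, with total RNA of each sample on 1 single-colour Illumina bead array. The labels give no age, stimulation or time point, and do not say whether the knockout covers all cells or whether the samples came from separate animals. A p-value here thus sets the group difference against the variation of samples within the groups, and that variation may be technical. The study asks about ASC in cytotoxic T cell differentiation, and the question here is whether factors of T cell quiescence and trafficking differ in its absence.

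Kruppel-like factors share a set of C2H2 zinc fingers at their carboxyl end, through which they bind GC-rich and CACCC-type sequences, and they differ in the regions that recruit activators or repressors. In mouse T cells Klf2 is known for keeping naive cells quiescent and for inducing the receptors that let them leave and enter lymph nodes, and it is turned down when the T cell receptor is engaged. Klf4 is known for restraining the division of mouse CD8+ T cells. Klf6, Klf10 and Klf4 are also known as genes that respond quickly to stimuli in many cells.

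The promoters of Klf4 and Klf2 are shown because Klf4 carries the difference described below and Klf2 is its best known relative in T cells. Foxo and Mef2 factors are known to act upstream of Klf2, and the windows were searched for the core patterns of these factor families. Each line holds the 250 bases before the annotated start in RefSeq, build GRCm38.p6, read 5′ to 3′ on the strand of the gene. Klf4 lies on the minus strand (chr4:55532476-55532725 for the window) and Klf2 on the plus strand (chr8:72318812-72319061). Capitals mark the forkhead core TGTTTA in Klf4 and, in Klf2, the match to the Mef2 pattern, CTA and TAG with any 4 bases between them.
Klf4: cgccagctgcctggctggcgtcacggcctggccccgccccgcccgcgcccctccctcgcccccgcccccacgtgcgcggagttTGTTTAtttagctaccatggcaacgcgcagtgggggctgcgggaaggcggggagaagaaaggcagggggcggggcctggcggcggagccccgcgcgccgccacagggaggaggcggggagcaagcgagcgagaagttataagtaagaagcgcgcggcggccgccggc
Klf2: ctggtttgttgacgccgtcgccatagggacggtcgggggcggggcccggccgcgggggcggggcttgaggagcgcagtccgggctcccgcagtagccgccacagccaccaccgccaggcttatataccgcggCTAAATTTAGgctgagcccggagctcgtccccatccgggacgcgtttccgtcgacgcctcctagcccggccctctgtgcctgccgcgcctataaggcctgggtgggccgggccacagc

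A window was held for 8 of the 10 factors, and all searches covered both strands. The forkhead core began 167 bases before the start of Klf4 and was also present at Klf9, while 12% of all 32851 promoter windows of this length hold it. The Mef2 pattern began 118 bases before the start of Klf2 and was found at no other member, against 3.2% of all windows. A GC box, CCGCCC, was present at Klf2, Klf3, Klf4, Klf6, Klf7 and Klf13, and 32.7% of all windows hold one. A CACCC box, CACCC, was present at Klf2, Klf3, Klf7, Klf9, Klf12 and Klf13, and 52% of all windows hold one. These 2 boxes can share bases. Such matches describe letters in a window and are not sites.

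Facts that touch every member come first. Between 42.8% and 45.4% of probes were detected on an array, where detection means a detection p under 0.05. The share was 44.9% to 45.4% on knockout arrays and 42.8% to 44.5% on wild type arrays. The lowest detected signal was 131.8 to 135.6 on knockout arrays and 136.2 to 139.8 on wild type arrays. The same dim signal could thus pass detection in the knockout and fail it in wild type. Detection counts of dim probes are to be read with that gap. Probes below detection had a median signal between 119.3 and 123.7 on each array, the level against which dim probes are read here. Pycard (probe ILMN_2936476) was detected on 0 of 4 knockout arrays and on 4 of 4 wild type arrays. Its signal averaged 121.5 ± 2.57 in the knockout and 500.1 ± 19.0 in wild type (SD, n = 4 each). Both probes of Cd8b1, the CD8 beta chain gene, were detected on all 8 arrays, as were Cd3d, Cd3e and Cd3g, genes of the T cell receptor complex. The 1 probe of Cd8a, the CD8 alpha chain gene, was detected on 0 of 8 arrays.

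Of the 16 Klf probes, 8 were detected on all 8 arrays and 6 on none. The detected probes belong to Klf2, Klf3, Klf4, Klf6 (2 probes), Klf7, Klf9 and Klf13, and these 8 probes of 7 genes entered the test, which required detection on at least 4 arrays. Klf5, Klf10 and Klf12 had no tested probe. Probes of different genes have different brightness for the same amount of RNA, so signals are compared only within a probe.

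Klf4, on chromosome 4 at 55527137 to 55532475 (GRCm38.p6), was higher in the knockout at its detected probe. Probe ILMN_2999439 had signals of 209.7, 193.5, 222.2 and 230.5 in knockout cells, against 161.3, 162.1, 151.5 and 153.1 in wild type cells. Every knockout array lay above every wild type array, with knockout replicates 3 and 4 the highest. After background correction and normalization the log2 level was 6.80 ± 0.179 in the knockout and 5.61 ± 0.112 in wild type (SD, n = 4 each). The log2 difference was 1.19 ± 0.106 (SE), with a 95% interval of 0.96 to 1.43, or 2.29-fold. In bulk samples like these, more cells that express Klf4 and more Klf4 RNA per cell cannot be told apart.

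**Figure D1:**
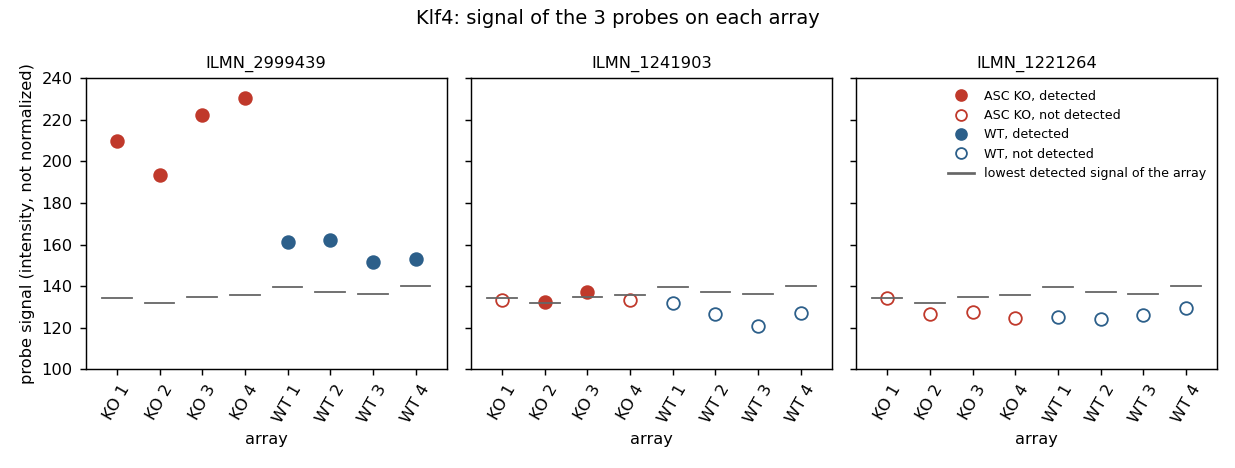
Signal of the 3 Klf4 probes on each array (vertical axis, intensity before normalization), knockout arrays left and wild type arrays right, with filled points where the probe was detected and grey lines at the lowest signal that counted as detected on that array. Only ILMN_2999439 stands clear of the lines, at 193.5 to 230.5 in the knockout and 151.5 to 162.1 in wild type.

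The Klf4 probe was dim, and the size of its difference moved with the background correction. It stood 74.2 to 108 signal units above the median undetected probe on knockout arrays and 29.8 to 39.5 units above it on wild type arrays. Among detected probes it ranked above 36.3% to 42.1% on knockout arrays and above 13.1% to 21.5% on wild type arrays. The log2 difference was 0.71 with another background model (normexp with an offset of 50) and 0.49 with no background correction. Leaving out 1 array at a time kept it between 1.13 and 1.26. In the fit used here, 14 of the 7759 tested genes differed by more than Klf4 in either direction, at the brightest probe of each gene. That rank also depends on the background correction. With none, Klf4 at 0.49 lay below genes that it exceeded in this fit, such as Dusp1 (1.01) and Fosb (0.88).

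The 2 other Klf4 probes were near background. Probe ILMN_1241903 had signals of 133.2, 132.4, 137.1 and 133.2 in the knockout and of 132, 126.5, 120.9 and 127.2 in wild type. Knockout replicates 2 and 3 passed detection there, at detection p-values of 0.0451 and 0.0376, and knockout replicate 1 lay just outside at 0.0589. No wild type array detected this probe, and its signals did not overlap between the groups. Probe ILMN_1221264 was detected on 0 of 8 arrays, at 124.5 to 134 in the knockout and 124.1 to 129.2 in wild type. The Klf4 difference therefore rests on 1 of its 3 probes.

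Among the tested members, Klf4 was the only one called by the fit across all probes, 1 of 7 genes, where 1.13% of all 7759 tested genes were called (limma, Benjamini-Hochberg adjusted p under 0.05). Counting genes higher in the knockout, the shares were the same 1 of 7 members against 0.619% of all genes. No member was called lower, against 0.516% of all genes. Since Klf4 brought the family into view, nothing is read from these counts. Groups did not overlap at 1 of 8 tested Klf probes, that of Klf4, against 8.12% of all tested probes. At the brightest probe of each gene, 6 of the 7 members lay above 0, with a median log2 difference of 0.21, against 50.1% of genes above 0 and a median of 0.0002 over all tested genes.

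**Figure D2:**
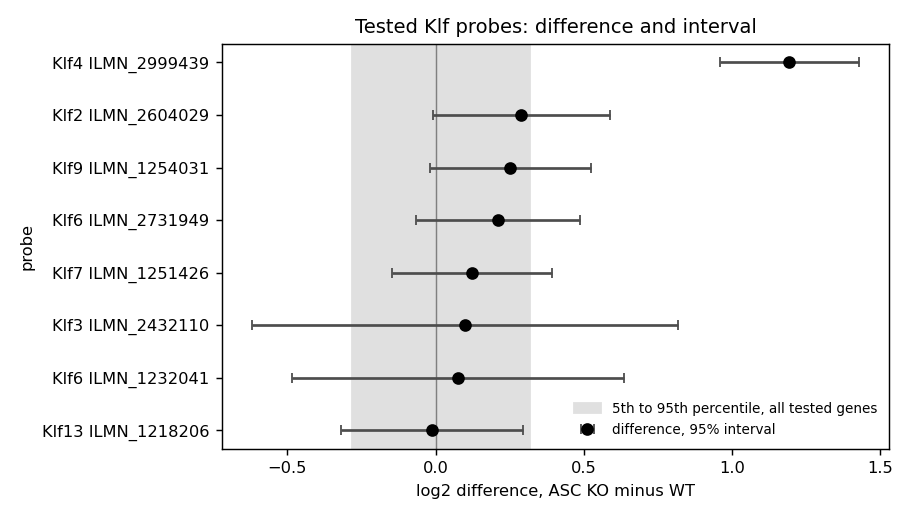
Log2 difference, knockout minus wild type, of the 8 tested Klf probes (horizontal axis) with 95% intervals, over a grey band from the 5th to the 95th percentile of all tested genes (-0.28 to 0.32). Klf4 at 1.19 lies outside the band, and the 7 other probes lie inside it with intervals that include 0.

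Klf2, the quiescence and egress factor, was bright. Its probe ILMN_2604029 had signals of 2416.5, 2563.5, 3364.9 and 2530.5 in the knockout and of 2469.4, 2253.9, 2270.5 and 2934.9 in wild type. Knockout replicate 3 was the highest of the 8 arrays and wild type replicate 4 the second, so the groups overlapped. The log2 difference was 0.29 ± 0.134 (SE), with a 95% interval of -0.01 to 0.59. With no background correction the log2 differences were 0.28 ± 0.106 for Klf2 and 0.49 ± 0.0588 for Klf4 (SE). The Klf2 difference was smaller under other settings, at 0.16 with median scaling over all probes and 0.19 without knockout replicate 3.

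Klf9, a factor induced by glucocorticoids in several tissues, showed a similar pattern at lower signal. Probe ILMN_1254031 had 299.6, 258.6, 274.5 and 259.7 in the knockout and 255.9, 249.4, 232.7 and 298.4 in wild type. Wild type replicate 4 alone reached the knockout arrays, and the other 3 wild type arrays lay below all of them. The log2 difference was 0.25 ± 0.123 (SE; 95% interval -0.02 to 0.53), and 0.37 without wild type replicate 4, still not called. With no background correction it was 0.15.

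Klf6, an early response factor, has 2 tested probes that differ in spread. The bright probe ILMN_2731949 had 2760.6, 3226.2, 3861 and 3488.8 in the knockout and 3101.9, 3827.3, 2917.3 and 2949.6 in wild type, with a log2 difference of 0.21 ± 0.124 (SE; 95% interval -0.06 to 0.49). The dim probe ILMN_1232041 had 190.8, 209.7, 312.7 and 277.6 in the knockout and 229.4, 258.6, 242.7 and 244.2 in wild type. In these signals knockout arrays lay on both sides of the wild type arrays, with replicates 3 and 4 above all of them and replicates 1 and 2 below. After normalization knockout replicate 2, at a log2 level of 6.88, lay above wild type replicate 1, at 6.78. The log2 difference at the dim probe was 0.08 ± 0.252 (SE). Its sign turned without wild type replicate 1 (-0.01) or knockout replicate 3 (-0.14) or 4 (-0.04).

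Klf3, which is known as a repressor that recruits CtBP, varied most within the groups. Probe ILMN_2432110 had 335, 425.4, 446.6 and 232.1 in the knockout and 293.5, 309.9, 355.2 and 450.5 in wild type. In these signals knockout replicate 4 was the lowest of all arrays and wild type replicate 4 the highest. After normalization knockout replicate 4 was still the lowest, but knockout replicate 2 was the highest, at a log2 level of 8.49. Wild type replicate 4 was then at 8.38. The within-group SD was 0.581 on the log2 scale, larger than at 99.7% of tested probes, whose median was 0.157. The dim Klf6 probe followed at 0.447, above 99% of tested probes, while Klf4 at 0.149 lay above 46.3%. With such spread, the Klf3 difference of 0.10 ± 0.323 (SE) has an interval from -0.62 to 0.82. It turned sign without wild type replicate 1 (-0.05), knockout replicate 2 (-0.08) or knockout replicate 3 (-0.07).

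Klf7 and Klf13 showed differences no larger than about their standard errors. Klf7, named for its broad expression, had 603.4, 588.3, 476.9 and 623.5 at probe ILMN_1251426 in the knockout and 617.3, 547.9, 572.6 and 534 in wild type, a log2 difference of 0.12 ± 0.121 (SE; 95% interval -0.15 to 0.39). Klf13, known for driving the chemokine gene Ccl5 in T cells, had 1481.2, 1378.7, 1370 and 1084 at probe ILMN_1218206 in the knockout and 1339.9, 1356.8, 1616.6 and 1506.6 in wild type. The groups overlapped at both probes, and knockout replicate 4 was the lowest array for Klf13. The Klf13 difference was -0.01 ± 0.138 (SE; 95% interval -0.32 to 0.29), of no stable sign under the alternatives. Klf13 lies on chromosome 7 like Pycard, 64.1 Mb away.

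**Figure D3:**
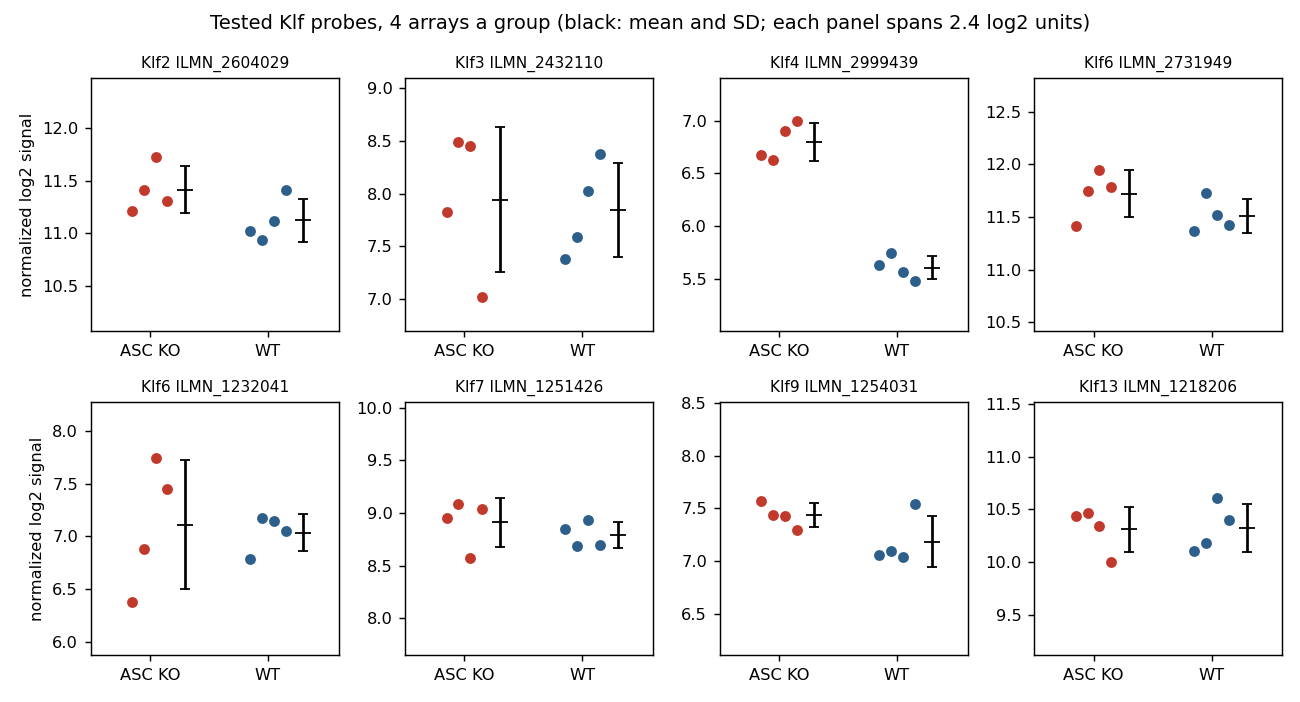
Normalized log2 signal of the 8 tested Klf probes on 4 knockout arrays (left in each panel) and 4 wild type arrays (right), with mean and SD in black; every panel spans the same number of log2 units. The groups separate at Klf4 and overlap at the 7 others, with the widest spread at Klf3.

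Members near background did not enter the test. Klf5 was detected on 1 knockout array, replicate 4, at a signal of 143.4 and a detection p of 0.0125, and on no wild type array. Klf10, known from mice as a target of TGF-beta, had signals of 121.6 to 128.2 in the knockout and 122.2 to 133.6 in wild type and was detected on 0 of 8 arrays. The 4 probes of Klf12, a repressor related to Klf3, were detected on 0 of 8 arrays each. One of them, ILMN_2737129, had 119.3 to 128.5 in the knockout and 130.3 to 134.5 in wild type, without overlap but below detection in both groups, so no fold is given. These probes do not show that the genes are silent, only that their signal was not above background.

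Of the family members outside the 10, Klf16 alone was tested, at signals of 310.8 ± 26.9 in the knockout and 333.6 ± 30.4 in wild type (SD, n = 4 each) and a log2 difference of -0.03 ± 0.0959 (SE). Klf1, the erythroid factor, was detected on 1 of 4 knockout and 1 of 4 wild type arrays. Klf8, Klf11, Klf15 and the 3 probes of Klf17 were detected on 0 of 8 arrays. Klf14 was not analysed here.

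The genes around the family were taken from 9 lists, with 98 of 137 distinct genes tested, the members left out. Of these, 5 were called higher and 0 lower by limma (adjusted p under 0.05), or 5.1%, against 1.13% of all tested genes. They were Dusp1, Tsc22d3, Fosb, Fos and Cxcr4. The lists were drawn up with earlier results known, so the share is a description. All 5 belong to the lists of immediate early, glucocorticoid and trafficking genes.

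Upstream of Klf2 and Klf4, 13 of 20 genes were tested and 0 were called, with 0 at an unadjusted limma p under 0.05, a level that 16% of all tested genes reached, and a median log2 difference of -0.07, which ran from -0.08 to 0.02 over the alternatives. Foxo1, a forkhead factor that induces Klf2, differed by 0.09 ± 0.115 (SE). The largest values were those of Mef2c at 0.31 ± 0.288, a probe that 4 knockout and 3 wild type arrays detected, the kinase gene Mtor at -0.17 ± 0.133 and the deacetylase gene Hdac5 at -0.13 ± 0.0911. Elf4, an activator of Klf4 in mouse CD8+ T cells, was at 0.11 ± 0.174.

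Among trafficking genes linked to Klf2, 10 of 15 were tested and Cxcr4, a receptor for homing to bone marrow, was called higher. It had signals of 453.9, 493.7, 635.1 and 560.8 in the knockout and of 363, 344.8, 319.3 and 435 in wild type, a log2 difference of 0.85 ± 0.156 (SE, limma adjusted p = 0.0413). The call held without wild type replicate 4 or knockout replicate 1 and was lost without wild type replicate 1 (limma adjusted p = 0.101), 2 (0.132) or 3 (0.0957) or knockout replicate 2 (0.0878), 3 (0.094) or 4 (0.099). S1pr1, the egress receptor gene most closely tied to Klf2, was detected on 0 of 8 arrays. The lymph node homing receptor gene Ccr7 was at 0.46 ± 0.189 and detected on 4 knockout and 2 wild type arrays, the gut homing integrin gene Itgb7 at -0.22 ± 0.109 and the chemokine receptor gene Cxcr3, which Klf2 is known to hold down in mice, at -0.03 ± 0.0827. Il7r, the interleukin 7 receptor gene, and Cd69, whose product retains T cells in tissue, were at 0.84 ± 0.237 and 0.80 ± 0.206 and were not called. Both were called with normexp at an offset of 50 and with no background correction, a setting that the authors' value table repeats. Cd69 was also called with the replicate number as a block. Without Cxcr4, 3 of the list's genes had an unadjusted limma p under 0.05, all higher, against 16% of tested genes in either direction. The list's median was 0.08.

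Quiescence genes and brakes of the cell cycle were tested for 17 of 21 genes. Of these, 0 were called by limma and 5 had an unadjusted p under 0.05, all higher, against 16% of tested genes in either direction. Of the 17 genes, 13 lay above 0, against 50.1% of all tested genes, with a median of 0.10. Cdkn1a, the p21 gene that Klf4 is known to induce, was at 0.37 ± 0.129 (SE, limma adjusted p = 0.243), with mean signals of 559.4 in the knockout and 485.6 in wild type. The metabolic brake gene Txnip was at 0.37 ± 0.156 and the naive T cell factor gene Lef1 at -0.33 ± 0.16. Proliferation genes reported under Klf2 and Klf4 were tested for 14 of 17 genes, with 0 called, 1 lower at an unadjusted limma p under 0.05 and a median of -0.03, whose sign turned when single arrays were left out. That gene was Cdk1, the mitotic kinase, with 1526.3, 1363.9, 1411.5 and 1436.4 in the knockout and 2065.5, 2008, 1650 and 1816.2 in wild type and no overlap. Its log2 difference was -0.28 ± 0.0743 (SE, limma adjusted p = 0.129). Myc, detected on 3 knockout and 1 wild type arrays, was at 0.28 ± 0.137 and Odc1, of polyamine synthesis, at 0.12 ± 0.0936.

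Cofactors and turnover genes of Klf proteins, among them the corepressors Ctbp1 and Sin3a and the ubiquitin ligase gene Wwp1, were tested for 12 of 18 genes. None was called by limma, none had an unadjusted p under 0.05, and differences ran from -0.17 (Fbxw7) to 0.17 (Vhl), with Smurf2 at -0.15 ± 0.132. Of the related Sp factors, 3 of 6 were tested and 0 called, with Sp4 at -0.50 ± 0.164 (SE), the 1 gene of an unadjusted limma p under 0.05, Sp6 at -0.31 ± 0.202 and Sp1 at 0.09 ± 0.269. Sp4 was called lower without knockout replicate 2, the array that stood above the other knockout arrays there. Of the TGF-beta genes listed with Klf10, 8 of 11 were tested and 0 called. An unadjusted limma p under 0.05 was reached by 4, all higher, against 16% of tested genes in either direction. These 4 included the corepressor gene Tgif1 at 0.61 ± 0.163, the signal transducer gene Smad3 at 0.51 ± 0.131, which did not overlap between the groups, and the receptor gene Tgfbr1 at 0.33 ± 0.124. Tgif1 and Smad3 were called with normexp at an offset of 50, with trend and robust variances and with no background correction. The authors' value table repeats the last of these.

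Glucocorticoid response genes, listed with Klf9, were tested for 7 of 10 genes. All 7 lay above 0, against 50.1% of all tested genes, with a median of 0.38. Of these, 2 were called higher, against 0.619% of all tested genes. An unadjusted limma p under 0.05 was reached by 4, all higher, against 16% of tested genes in either direction. The 2 called genes were Dusp1 and Tsc22d3. Tsc22d3, the leucine zipper gene GILZ, had signals of 1379.6, 1116.9, 1939.1 and 1398.6 in the knockout and of 475.3, 558.1, 646.7 and 934.1 in wild type. It rose by 1.48 ± 0.257 on the log2 scale (SE, limma adjusted p = 0.0334), a call that held without wild type replicate 4 and was lost without wild type replicate 1 (limma adjusted p = 0.0634), 2 (0.108) or 3 (0.0708) or knockout replicate 1 (0.0704), 2 (0.0532), 3 (0.0784) or 4 (0.086). Ddit4, Per1 and Errfi1 were at 0.55 ± 0.137, 0.38 ± 0.153 and 0.28 ± 0.189 and were not called. Nr3c1, the glucocorticoid receptor gene, was detected on 0 of 8 arrays. Klf9 itself, at 0.25, was not called.

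Immediate early and handling genes were tested for 16 of 21 genes, with 3 called higher and 0 called lower. Over all tested genes, 0.619% were called higher and 0.516% lower. An unadjusted limma p under 0.05 was reached by 7 higher and 1 lower, against 16% of tested genes in either direction. Of the 16, 14 lay above 0, against 50.1% of all tested genes, with a median of 0.26. Dusp1, a phosphatase gene that this list shares with the glucocorticoid list, had 4960.4, 6039, 7518.9 and 7712.3 in the knockout and 3268.2, 3785.8, 3612.6 and 3739.7 in wild type. It rose by 1.03 ± 0.151 on the log2 scale (SE, limma adjusted p = 0.0147) and lost the call without wild type replicate 2 (limma adjusted p = 0.0513). The AP-1 genes Fosb and Fos rose by 1.14 ± 0.203 and 0.65 ± 0.122 (limma adjusted p = 0.0357 and 0.0435). The call of Fosb held only without knockout replicate 1 and that of Fos only without knockout replicate 2 when single arrays were left out; without another array the adjusted p ran from 0.06 to 0.108 for Fosb and from 0.0513 to 0.11 for Fos. Jun, Junb and Ier5 were at 0.42 ± 0.206, 0.41 ± 0.129 and 0.38 ± 0.16 and were not called, while Egr1 was at 0.05 ± 0.144 and Ier2 at -0.34 ± 0.115.

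**Figure D4:**
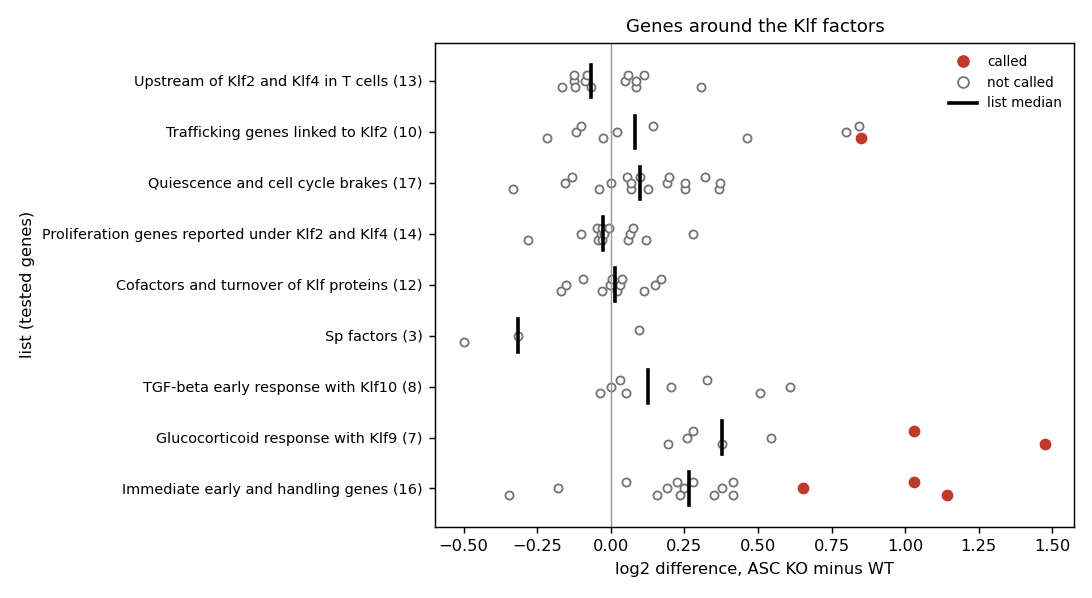
Log2 difference, knockout minus wild type (horizontal axis), of the tested genes of 9 lists around the Klf factors, each point a gene at its brightest probe, with called genes in red and list medians as black bars. Called genes appear in the trafficking, glucocorticoid and immediate early lists, and Dusp1 appears in 2 of them.

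The level of the immediate early genes moved with Klf4 between the groups. The normalized signal summed over the 20 genes of that list on the array was 20500, 20330, 25670 and 26980 in knockout replicates 1 to 4, against 14490, 15870, 17750 and 17320 in wild type replicates 1 to 4. Knockout replicates 3 and 4, the highest for Klf4, were the highest here too. Within wild type the order went the other way. Wild type replicates 1 and 2 were higher than 3 and 4 for Klf4 and lower for this sum. The summed level of 10 genes of CD4 and regulatory T cells was 7445 to 8866 in the knockout and 5408 to 5905 in wild type, with Foxp3 called higher (1.09 ± 0.138, SE, limma adjusted p = 0.00576). Foxp3 was dim like Klf4, at signals of 213.8 to 231.3 in the knockout and 159.5 to 179 in wild type. Its log2 difference was 0.48 with no background correction. Of the CD4 and regulatory T cell list, 6 of 8 tested genes had an unadjusted limma p under 0.05, all higher. Over all tested genes, 16% reached that level in either direction. Among the 6 were Ctla4, Il2ra and Tnfrsf4 at 0.63 ± 0.184, 0.51 ± 0.176 and 0.44 ± 0.153. Ctla4 and Tnfrsf4 were bright and weigh heavily in the sum of this list. The other 2 tested genes, Ikzf2 and Zbtb7b, were at -0.22 ± 0.164 and -0.0045 ± 0.111. Cd4, the gene that defines CD4 cells, was detected on 1 of 4 knockout and 0 of 4 wild type arrays, at signals of 120.9 to 136 in the knockout and 126.3 to 134.2 in wild type, and Cd40lg was detected on 0 of 8 arrays. The part of these genes in the Klf4 difference was not tested.

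The summed markers of other cells in which Klf factors are prominent overlapped between the groups. The summed level of 8 genes of monocytes, macrophages and neutrophils, which use Klf4, was 828.6 to 1863 in the knockout and 881.4 to 1137 in wild type, with Itgam detected on 0 of 8 arrays and 0 of 6 tested genes called. S100a9 and S100a8, of neutrophils, were at 1.08 ± 0.329 and 0.83 ± 0.32 and Ctss at -0.34 ± 0.131. The sums were 1863, 1659, 828.6 and 1299 in knockout replicates 1 to 4, so 3 knockout arrays lay above every wild type array and replicate 3 below all of them. The part of these cells in the Klf4 difference was not tested. Of 9 genes of endothelium and stroma, where Klf2 and Klf4 are abundant, 1 was tested, Pecam1, at 0.22 ± 0.0803, and Cdh5, Emcn, Col1a1, Col3a1 and Dcn were detected on 0 of 8 arrays. The sum of that list was 304.2 to 328.3 in the knockout and 291.3 to 323 in wild type. Of 6 erythroid and platelet genes on the array, which include Klf1, Hba-a1 was tested, at 0.97 ± 0.3, with a near-identical gene copy, and the sum was 196.7 to 362.1 in the knockout and 168.5 to 252.4 in wild type.

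The remaining markers also had no called gene. B cell markers summed to 217.2 to 326.7 in the knockout and 205.1 to 261.4 in wild type, with Cd79b at 0.41 ± 0.23 and Cd22 at -0.26 ± 0.126 and Cd79a, Ms4a1 and Blk detected on 0 of 8 arrays. NK cell markers summed to 581.6 to 1015 in the knockout and 497.6 to 635 in wild type, with Klre1 at 0.49 ± 0.185, Gzma at 0.32 ± 0.34 and Klrb1c at 0.04 ± 0.288. Dendritic cell markers summed to 1244 to 1899 in the knockout and 1412 to 1756 in wild type, with Siglech at -0.18 ± 0.181, H2-Aa at 0.18 ± 0.184 and Cd74 at 0.07 ± 0.158. Of the CD8 T cell markers 0 of 8 tested genes were called. An unadjusted limma p under 0.05 was reached by 2 of the 8, against 16% of tested genes in either direction. Their median was 0.01, with Cd28 at 0.34 ± 0.119, Thy1 at 0.17 ± 0.0727 and Cd2 at 0.13 ± 0.0702.

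The genes whose pattern over the 8 arrays was most like that of Klf4 were sought by the root mean square distance between log2 profiles, each centred on its own mean. The nearest was Rgcc, a regulator of cell cycle progression, at 0.147, followed by Mzb1, an endoplasmic reticulum cofactor known from B cells, at 0.151, and Tpbg, a membrane glycoprotein gene, at 0.168. Dusp1 at 0.202 and Fosb at 0.212 completed the 5. The median distance over tested probes was 0.632, and a short distance mostly reflects a difference between the groups of like size. Rgcc had signals of 633.4, 529, 779.3 and 734.6 in the knockout and 436.1, 428.3, 401.8 and 395.3 in wild type. The 5 genes were chosen for nearness on these same 8 arrays. Their likeness to Klf4, in single replicates too, therefore follows from the choice and is only a description. Knockout replicates 3 and 4 were the highest arrays for Rgcc, Mzb1, Dusp1 and Fosb as for Klf4. Tpbg was lowest among knockout arrays in replicate 3. It was detected on 4 of 4 knockout and 0 of 4 wild type arrays, so it entered the test through the knockout arrays alone. Among wild type arrays Dusp1 was lowest in replicates 1 and 2, where Klf4 was highest. Within the family, the bright Klf6 probe (0.509) and Klf2 (0.512) were nearest to Klf4, but 688 and 726 other probes were nearer, and Klf3 was farthest at 0.808.

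**Figure D5:**
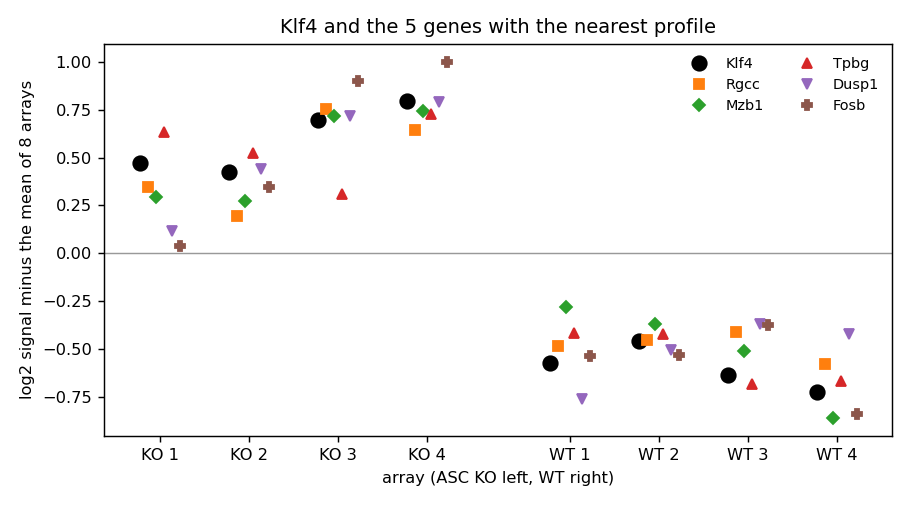
Log2 signal minus the mean of 8 arrays (vertical axis) for Klf4 and the 5 genes of nearest profile on knockout arrays (left) and wild type arrays (right). All 6 genes lie above 0 on the knockout arrays and below 0 on the wild type arrays, from 0.42 to 0.80 for Klf4 in the knockout and from -0.72 to -0.46 in wild type. The 5 genes were chosen for nearness to Klf4 on these arrays, so their likeness follows from the choice.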

How the data were processed

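Total RNA of 8 samples was amplified into biotinylated cRNA and hybridised to Illumina MouseRef-8 arrays, per the labels' protocols. The submitters' processing notes name GenomeStudio without a version. The authors deposited non-normalized probe intensities, each with a detection p-value per array, per the file headers. Their deposited value table is on a log2 scale. It matched, to within 0.00059, the probe signals after quantile normalization alone and subtraction of every probe's median, and column medians lay between -0.00045 and 0.00053. Its scale, centring and direction were found from the probe signals, since no header states them, and it served as an alternative.

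Intensities were corrected with limma's nec function from the detection p-values (offset 16), then quantile-normalized and log2-transformed. Probes detected (p under 0.05) on at least 4 of 8 arrays were tested, 11270 of 25697. Knockout minus wild type was fitted with lmFit and eBayes (limma 3.58.1, R 4.3.3), with Benjamini-Hochberg adjustment over all tested probes. Probe symbols came from the platform annotation, updated through Entrez identifiers to GRCm38.p6 for 23962 probes, and 1719 probes had none. A gene counted once, and lists used the brightest tested probe of each gene. Members and lists were chosen with earlier results of these data known. Named genes were all members, Pycard, every called gene and the 3 largest other differences of each list, and the 5 genes nearest to Klf4; others named for a known role, such as Foxo1, Elf4, S1pr1, Cxcr3, Itgb7 and Egr1, were chosen after their values were seen. No source used here gives slides, scan order or batches. On simulated arrays of 11270 probes the fit called 93% of changed probes at a log2 difference of 1 and 49% at 0.5. Of the probes it called, 5.96% were unchanged ones. The simulation drew independent normal noise with each probe's SD from these data. It held no outlying arrays and no correlation between probes, so real arrays may do worse. The number of arrays limits the precision, and the median standard error of a difference was 0.109.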

Additional observations from a re-analysis of the deposited data

Results flagged for a closer look

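Dixon's ratio, the distance of the extreme array from its neighbour over the whole range of its group, was held against its 95% critical value. It was exceeded in 8 of 128 groups of 4 values, where chance gives about 1 in 20, or 6.4. Among the members it concerned Klf9, where wild type replicate 4 had a normalized log2 signal of 7.54 against 7.04 to 7.09 on the other wild type arrays (ratio 0.886). For Cxcr4 the same array had 8.31 against 7.80 to 7.83 (ratio 0.959). Foxp3 read high on wild type replicate 3, with 6.26 where the others had 5.67 to 5.75 (ratio 0.858). Il2ra did so on the same array, with 6.03 where the others had 5.37 to 5.39 (ratio 0.96). Sp4 read high on knockout replicate 2, with 6.65 where the others had 5.87 to 5.94 (ratio 0.912). Ctla4 read low there, with 11.15 where the others had 11.49 to 11.55 (ratio 0.841). Knockout replicate 1 was low for Sp1, at 5.49 against 6.63 to 6.87 (ratio 0.831), and wild type replicate 2 was low for Klrb1c, at 4.65 against 5.67 to 5.86 (ratio 0.847).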

How the results depend on the processing

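The log2 difference of Klf4, which brought the family into view and is no test here, ran over 19 alternatives from 0.49 (no background correction, and the authors' value table) to 1.26. The authors' value table repeats the setting without background correction and is not a separate check. The counts of called genes were 48 higher and 40 lower in the main setting. They were 100 and 74 with normexp at an offset of 50, 112 and 88 with no background correction or the authors' value table, 116 and 90 with trend and robust variances, 29 and 23 with detection on at least 1 array, 30 and 26 with no detection filter, and 26 and 20 with the replicate number as a block. Leaving out 1 array gave 15 to 38 higher and 15 to 32 lower. Median scaling over all probes called 36.8% of its genes higher, against 54.5% in the main setting. With that scaling the median log2 difference over tested probes was -0.0827, against -0.0068 in the main setting. The list genes called, 5 in the main setting, were 10 with normexp at an offset of 50 and with trend and robust variances, 12 with no background correction or the authors' table, 3 with detection on at least 1 array and with the replicate block, 1 with no detection filter, and 0 to 3 without 1 array. The cause of these shifts was not tested.

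With all arrays kept, Fos lost its call with median scaling over all probes (limma adjusted p = 0.0995), and Fos, Fosb and Cxcr4 with the replicate block (0.129, 0.0738 and 0.0596). Fos and Cxcr4 lost it with detection on at least 1 array (0.0577 and 0.0541), and Tsc22d3, Fosb, Fos and Cxcr4 with no detection filter (0.0707, 0.0712, 0.073 and 0.0737). Tsc22d3 also lost it with trend and robust variances (0.0826). List genes called only in alternatives were Cd69, Il7r, Ddit4, Tgif1, Smad3, Cdk1, Cdkn1a, Zfp36l1 and Sp4. The numbers were not taken as pairs, since same-numbered samples deviated together only in part (r = 0.014, 0.107, 0.132 and -0.1 across probes), and not every sample correlated best with its own number. Without 1 array the difference ran from -0.0815 to 0.4108 for Klf3, from -0.1353 to 0.3194 for the dim Klf6 probe and from -0.0865 to 0.0902 for Klf13, so each took both signs. Klf13 was also above 0 with array weights (0.0126). Median scaling over all probes gave 0.16 for Klf2, 0.09 for the bright Klf6 probe, 0.04 for Klf7 and 0.18 for Klf9. In the main setting these were 0.29, 0.21, 0.12 and 0.25. Median scaling over detected probes was chosen after seeing the data. The size of the Klf4 difference depended on the background correction, 0.49 with none and 1.19 in the main setting, and remains uncertain.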
